A study of Drosophila melanogaster with 4 samples.

Results

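The regions described here are the stretches enriched for histone H3 monomethylated at lysine 27 (H3K27me1) in the last 2 Mb of 4 chromosome arms of Drosophila melanogaster, on the side of the centromere. They were chosen by position alone. A region of the list deposited for the whole series was taken when its midpoint lay between 21011545 and 23011544 on 2L, between 22543558 and 24543557 on 3L, between 20422828 and 22422827 on X, or between 1 and 2000000 on 3R, all on FlyBase release 5. Of the 12362 regions of that list, 832 (6.73%) met the rule, with 222 on 2L, 249 on 3L, 190 on 3R and 171 on X. The same windows held 444 of the 8209 regions listed for ChIP replicate 1 and 420 of the 6901 listed for replicate 2. The samples were ChIP-seq libraries from wild-type instar 3 larvae of the Oregon-R strain (Oregon-R-modENCODE), precipitated with a rabbit polyclonal antibody against H3K27me1 sold by Millipore. There were 2 ChIP samples and 2 input samples, and the input was not analysed here, so no background level stands beside the values. The labels name no dissected tissue. They also do not tell whether the replicates were collected separately, so their spread may be technical.

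Lysine 27 of histone H3 can carry a single methyl group or more. In flies these are placed by Enhancer of zeste, the catalytic subunit of the Polycomb repressive complex PRC2, and the trimethylated form is the one bound by Polycomb. Toward the centromere a fly chromosome arm passes from gene-rich euchromatin into pericentric heterochromatin, which is rich in repeats and transposon remnants and is known for methylation of lysine 9 of histone H3 and for the protein HP1a. The assembled arm stops inside this transition, so the end of the scaffold is not the centromere itself. In release 5 further heterochromatic sequence assigned to an arm is kept in separate scaffolds, here 2LHet, 3LHet, 3RHet and XHet. The covered share below is the percentage of bases inside regions. Unsequenced and repetitive bases, to which reads cannot be assigned, count among the bases of every window and scaffold. Their number is unknown here, and the spread between the replicates does not reflect it. Each region carries an enrichment score that the authors deposited without stating its scale, so scores are compared by differences only.

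The centromere side differed from arm to arm. It was richer in H3K27me1 than the rest of the arm on 3R, poorer on 3L and X, and on 2L close to the rest in replicate 1 and above it in replicate 2. On 3R regions held 30.3% of the bases in replicate 1 and 26.1% in replicate 2, against 20.4% and 16.2% of the rest of the arm. The difference was 9.92 percentage points in each replicate, while the covered shares themselves had an SD of 2.99 points between the replicates on both parts of the arm. On 3L the values were 9.68% and 9.31%, against 22.4% and 18.1% of the rest, a difference of -10.8 ± 2.8 points (SD, n = 2). On X they were 11.6% and 9.63%, against 24.9% and 19.4%, a difference of -11.5 ± 2.5 points. On 2L they were 19.4% and 20.8%, against 19.0% and 15.5%, a difference of 2.87 ± 3.36 points, which is within the spread between the replicates. No p-value is given for any comparison, since the smallest two-sided p of an exact sign-flip test over 2 replicates is 0.5. Each difference is read against the SD alone.

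As ratios to the rest of the same arm, the centromere side was covered 1.55 ± 0.09 times as much on 3R, 1.18 ± 0.22 times on 2L, 0.48 ± 0.02 times on X and 0.47 ± 0.06 times on 3L (SD, n = 2). Replicate 1 gave 1.03 and replicate 2 gave 1.34 on 2L. In the whole-series list the ratios were 1.43 on 3R, 1.32 on 2L, 0.60 on X and 0.82 on 3L. The 4 arms summed gave 0.82 and 0.95 (replicates 1 and 2), and 1.01 for the whole-series list, a sum in which the arms offset one another. Summed without 3R the ratio was 0.68, while it was 1.04 without 3L and 1.04 without X.

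**Figure D1:**
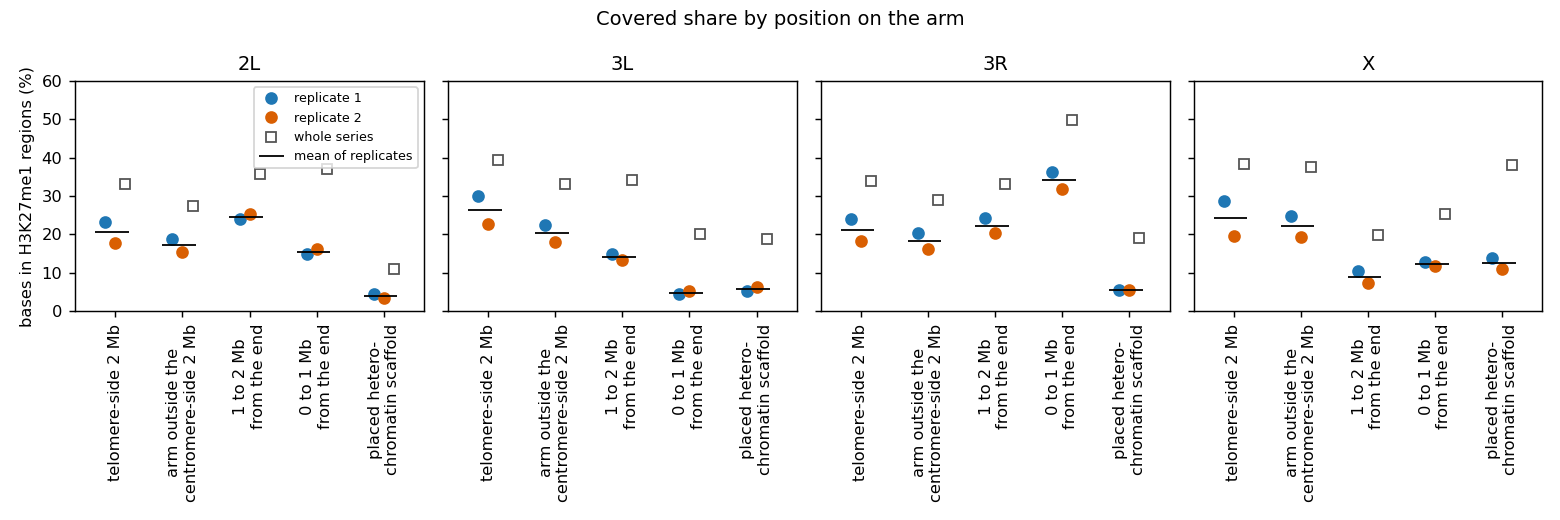
Percentage of bases inside H3K27me1 regions for each arm, in the telomere-side 2 Mb, the arm outside the centromere-side 2 Mb, the far and the end Mb of the centromere side, and the placed heterochromatin scaffold of the arm. Filled points are the replicates, bars their mean and open squares the whole-series list. On 3R the end Mb is the highest of the 5 positions in every list, and on 3L it lies near the level of 3LHet.

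Within each arm the centromere side stood at an extreme of the 2 Mb windows on 3R and X. Windows of 2 Mb were counted from the centromere-side end, without overlap. The centromere side was the most covered of 13 on 3R in each of the 3 lists, where the other windows reached at most 28.7% in replicate 1 and 23.5% in replicate 2. It was the least covered of 11 on X in each list, where no other window fell below 18.6% in replicate 1 and 12.7% in replicate 2. On 3L it was the least covered of 12 in replicate 1, the next to lowest in replicate 2, and rank 4 from the lowest in the whole-series list. On 2L it held rank 7 of 11 from the lowest in replicate 1, rank 10 in replicate 2 and rank 11 in the whole-series list. The window next to it along 3R was covered by 13.2% and 11.5%. The high share of 3R ended inside the 2 Mb, since the band 1500 to 2000 kb from the scaffold end held 11.2% in replicate 1 and 7.68% in replicate 2.

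The opposite ends of the arms give a further comparison. The telomere-side 2 Mb were covered by 24.2% ± 6.4 on X, 26.4% ± 5.1 on 3L, 21.2% ± 4.1 on 3R and 20.6% ± 3.7 on 2L (SD, n = 2). Set against them, the centromere side was covered 0.45 ± 0.06 times as much on X, 0.37 ± 0.06 times on 3L, 1.34 ± 0.12 times on 3R and 1.00 ± 0.23 times on 2L. In total covered share the 2 replicates differed by less on the centromere side than on the telomere side on every arm. Their SD was 0.93 against 3.74 points on 2L, 0.26 against 5.06 on 3L, 2.99 against 4.13 on 3R and 1.42 against 6.40 on X. The overlap of the replicates did not follow this order. Bases in both replicates over bases in either were 38.5% on the centromere side of 3L and 64.6% on its telomere side. They were 54.9% and 59.6% on 2L, 48.9% and 53.6% on X, and 64.1% and 58.5% on 3R.

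Number and mean width of the regions both went with the difference in covered share on 3R, 3L and X. On 2L regions were more numerous per Mb and narrower than on the rest in both replicates. Regions per Mb on the centromere side were 1.38 ± 0.04 times those of the rest on 3R, 1.24 ± 0.18 times on 2L, 0.64 ± 0.08 times on 3L and 0.57 ± 0.06 times on X. Mean widths were 1.12 ± 0.03, 0.95 ± 0.04, 0.74 ± 0.01 and 0.86 ± 0.06 times those of the rest in the same order. On 3L the whole-series list broke this pattern: it held 1.33 times as many regions per Mb as the rest of the arm, and their mean width was 0.62 times that of the rest. Median widths on the centromere side were 2436 and 2572 bp on 3R in the replicates, 2082 and 2033 bp on 2L, 2004 and 2072 bp on X, and 1820 and 1898 bp on 3L. The median was above that of the rest of the arm on 3R in both replicates, by 259 ± 135 bp, and below it on the other arms. The difference was -430 ± 13 bp on 3L, -236 ± 68 bp on 2L and -132 ± 95 bp on X.

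Steps of 100 kb toward the scaffold end showed alternation on every arm. There were 20 steps per arm, and the text counts distance from the centromere-side end of the scaffold. The replicates followed one another from step to step, with a Spearman coefficient across 20 steps of 0.96 on 3R, 0.94 on 2L, 0.92 on X and 0.77 on 3L. These coefficients describe positions that share 2 libraries, and they carry no p. Of the 80 steps, 31.3% had a replicate mean under 5%, against 21.4% of the 898 other full steps of these arms. Over 40% covered were 11.3%, against 11.5% of the others. The low steps were 10 of 20 on 3L (50%), 9 on X (45%), 5 on 2L (25%) and 1 on 3R (5%). For the rest of these arms the shares were 20.9%, 14.2%, 27.6% and 22.4% in that order. Only on 3L and X were low steps more frequent than on the rest.

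**Figure D2:**
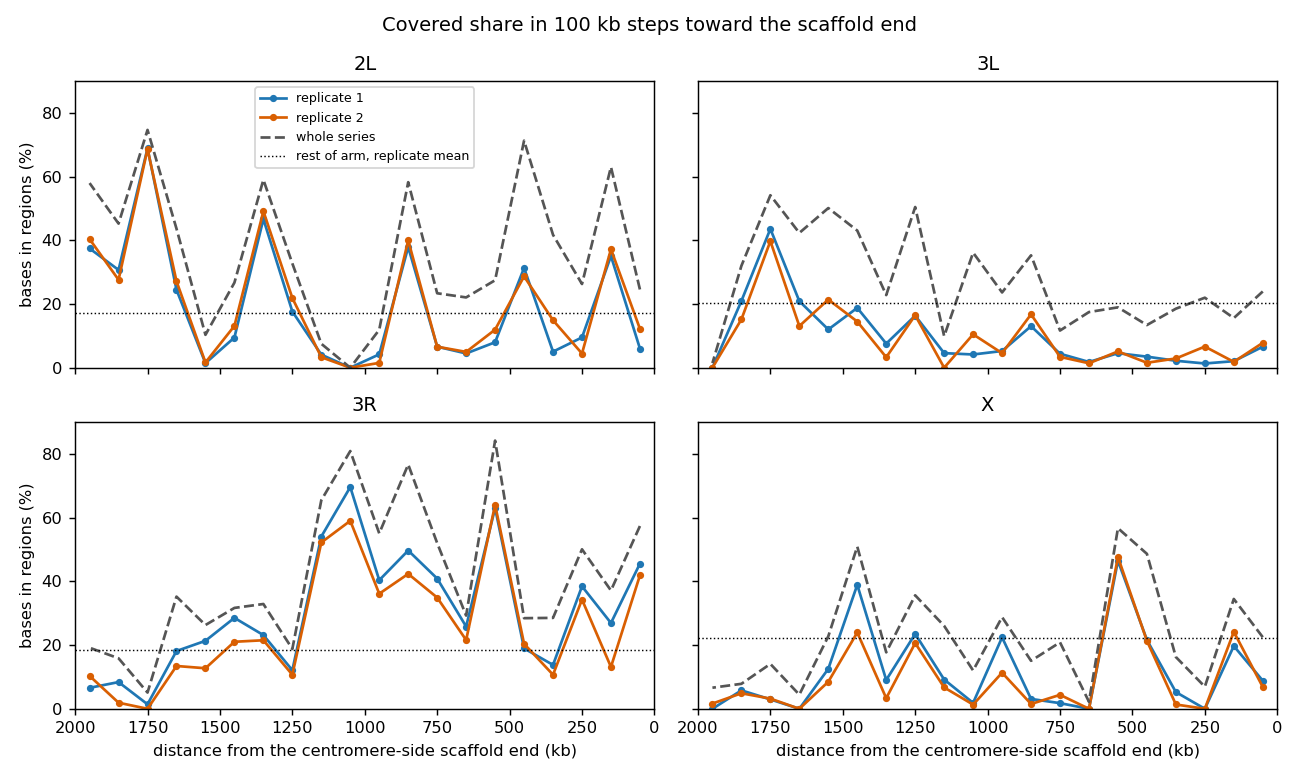
Percentage of bases inside H3K27me1 regions in each 100 kb step of the 4 arms, against distance from the centromere-side scaffold end in kb, with the end at the right. Lines are the 2 replicates and the whole-series list, and the dotted line is the replicate mean of the rest of the arm. The 3L replicates stay under 17% over the last 1000 kb, while 3R peaks at 64.3% and 63.5% in the mean of the replicates.

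On 3L coverage thinned toward the end. In bands of 500 kb, from the far limit to the scaffold end, replicate 1 was covered by 19.5%, 10.3%, 5.81% and 3.13%, and replicate 2 by 17.9%, 8.95%, 6.25% and 4.15%. The decline was larger than the gap between the replicates in each band, and the whole-series list fell over the same bands from 36.0% to 32.5%, 21.4% and 18.7%. The end Mb was covered by 4.83% ± 0.52 and the far Mb by 14.1% ± 1.0, a difference of -9.32 ± 1.56 points (SD, n = 2). The most covered step lay 1700 to 1800 kb from the end, with 43.6% and 39.7%. Next to it but one, the step 1900 to 2000 kb from the end held no bases in either replicate, so the decline does not start at the limit of the 2 Mb. The step at the very end, 0 to 100 kb, held 6.59% and 7.81%, above the 7 steps that follow it. In covered share the end Mb was thus close to 3LHet, which was covered by 5.23% and 6.41%.

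On 3R the end Mb was the richer part. It was covered by 36.3% in replicate 1 and 31.9% in replicate 2, and the far Mb by 24.3% and 20.3%, a difference of 11.8 ± 0.3 points (SD, n = 2). Most of the highly covered steps lay from 500 to 1200 kb from the end, though the step 600 to 700 kb held 25.8% and 21.6%. The most covered steps were 1000 to 1100 kb, with 69.6% and 59.0%, and 500 to 600 kb, with 63.0% and 64.0%. Nearer the end, the step 0 to 100 kb held 45.6% and 41.9% and the step 200 to 300 kb 38.5% and 34.3%. From 1200 kb onward a step held at most 28.5% in replicate 1 and 21.5% in replicate 2, and the step 1700 to 1800 kb held 1.41% and 0%. The last 200 kb at the scaffold end were covered by 36.2% and 27.5%. In contrast 3RHet was covered by 5.60% and 5.52%. The 3R scaffold end and 3RHet thus differed in covered share far beyond the replicate spread, with unassignable bases not taken into account.

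On 2L well covered steps alternated with steps of little coverage in the replicates. Its highest step lay 1700 to 1800 kb from the end, with 68.9% in replicate 1 and 68.6% in replicate 2. Further peaks lay at 1300 to 1400 kb (46.7% and 49.1%), 800 to 900 kb (37.9% and 40.0%) and 100 to 200 kb (35.1% and 37.2%). The steps 1900 to 2000 kb, with 37.4% and 40.4%, and 400 to 500 kb, with 31.3% and 28.7%, were also high. In the whole-series list the step 400 to 500 kb reached 71.3%, second to the 74.7% of the step 1700 to 1800 kb. The steps from 500 to 800 kb held 22.1% to 27.5% there, and 4.48% to 8.00% in replicate 1. The step 1000 to 1100 kb from the end was empty in all 3 lists. No other of the 80 steps was. The end Mb was covered by 14.8% and 16.2% and the far Mb by 24.1% and 25.3%, a difference of -9.16 ± 0.17 points. In the whole-series list that difference was 1.21 points, with 37.0% of the end Mb and 35.8% of the far Mb covered. The scaffold 2LHet was covered by 4.55% and 3.50%.

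On X most steps of the centromere side were low in the replicates. The highest step, 500 to 600 kb from the end, held 46.5% (replicate 1) and 47.6% (replicate 2). No other step reached the mean of the rest of the arm in both replicates apart from 1400 to 1500 kb, with 38.9% and 24.0%. In the whole-series list the steps 400 to 500, 500 to 600 and 1400 to 1500 kb held 48.6%, 56.7% and 50.9%. Steps with no base in either replicate lay at 200 to 300, 600 to 700 and 1600 to 1700 kb. The end Mb held 12.9% and 11.9% and the far Mb 10.4% and 7.41%, a difference of 3.49 ± 1.35 points. No steady rise toward the end lay behind it. In bands of 500 kb from the far limit to the scaffold end, replicate 1 held 4.3%, 16.5%, 14.8% and 11.1%. Replicate 2 held 3.6%, 11.2%, 13.0% and 10.7%. The scaffold XHet was covered by 14.0% and 11.0%, near the level of the end Mb in the replicates. The whole-series list held 38.2% of XHet, against 25.2% of the end Mb. Few regions stand behind the replicate values, with 11 in replicate 1 and 8 in replicate 2.

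Scores on the centromere side lay close to those of the rest of the arms. Over the 4 arms the median score was 0.554 in replicate 1 and 0.580 in replicate 2, against 0.577 and 0.562 for the rest. The difference was therefore negative in replicate 1 and positive in replicate 2, with a mean of -0.002 ± 0.029 (SD, n = 2), and it was 0.008 in the whole-series list. X had higher scores than the autosomal arms on its centromere side too. Its median there was 0.615 and 0.608, against 0.642 and 0.630 on the rest of X, and stood above 0.535 and 0.576 on 2L, 0.534 and 0.565 on 3L and 0.542 and 0.563 on 3R. Against the rest of X the difference was -0.024 ± 0.003, negative in both replicates, and it was 0.010 in the whole-series list. Along the steps the medians showed no steady course in the replicates. Spearman coefficients of score with distance ran from -0.38 to 0.39, and 41 of 80 steps in each replicate held fewer than 5 regions, which makes their medians unsteady.

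On 3L the whole-series scores were higher and the widths smaller in the bands nearer the end. In bands of 500 kb from the far limit to the scaffold end, the whole-series median score was 0.348, 0.394, 0.422 and 0.481, over 63, 74, 58 and 54 regions. The median width was 1720, 1906, 1456 and 1435 bp. The replicates showed the score order less clearly: replicate 1 had 0.521, 0.534, 0.532 and 0.647 over 29, 27, 14 and 8 regions, and replicate 2 had 0.558, 0.596, 0.566 and 0.591. On 2L the widths were also smaller in the end Mb. Over the same bands, median widths were 2548, 2283, 1511 and 1978 bp (replicate 1) and 2818, 2371, 1785 and 1824 bp (replicate 2).

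**Figure D3:**
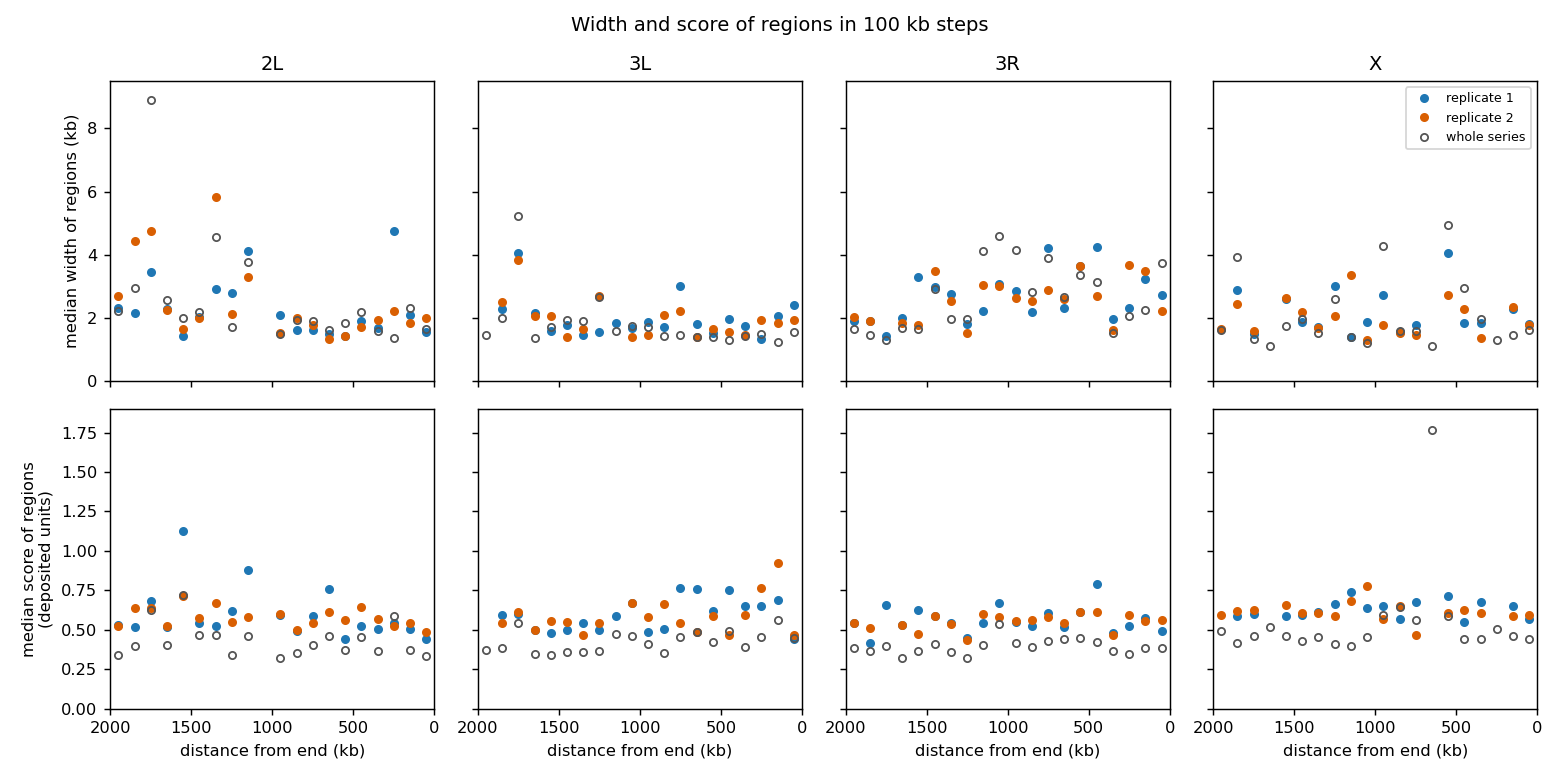
Median width in kb (upper row) and median deposited score (lower row) of the regions whose midpoint lies in each 100 kb step, against distance from the scaffold end. Filled points are the replicates and open points the whole-series list, and steps without a region are left blank. On 3R the whole-series medians exceed 4 kb in the steps from 900 to 1200 kb from the end, and on 3L in the step 1700 to 1800 kb from the end alone.

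How far the replicates overlapped also depended on the arm. Bases in both replicates over bases in either, the Jaccard index, came to 55.0% on the centromere side and 57.8% on the rest of the 4 arms. By arm the centromere side gave 64.1% on 3R, 54.9% on 2L, 48.9% on X and 38.5% on 3L, while the rest gave 54.1% on X to 59.7% on 3L. The covered share of the centromere side had the same order, 28.2%, 20.1%, 10.6% and 9.49% in the mean of the replicates. On the rest, X had the highest covered share, 22.1%, and the lowest index. Whether the index moves with the covered share was not tested. In the end Mb the index was 20.3% on 3L and 36.4% on 2L, against 46.0% and 69.4% in the far Mb. On 3R it was 64.7% in the end Mb and 63.2% in the far Mb. The index of the end Mb of 3L rests on 16.3 kb found in both replicates out of 80.4 kb found in either. For the placed heterochromatin of these 4 arms it was 26.0%.

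Counted as regions, 299 of 444 on the centromere side in replicate 1 (67.3%, 95% Wilson interval 62.8 to 71.5) shared at least 1 bp with replicate 2. Among all regions of replicate 1 that share was 66.5%. In replicate 2 it was 304 of 420 (72.4%, 67.9 to 76.4), against 81.6% of all its regions. Such intervals take each region as an independent draw and reflect counting error alone. On 3L the shares were 51.3% (40.4 to 62.1) and 50.7% (39.6 to 61.7), against 69.2% and 87.4% of the rest of 3L. On 3R they were 73.2% (65.9 to 79.4) and 88.7% (82.5 to 92.9), against 68.2% and 86.0%. On 2L replicate 2 was the one with fewer partners, 64.8% (56.2 to 72.6) against 83.2% of the rest, while replicate 1 had 73.0% against 68.4%.

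Of the 832 whole-series regions, 230 (27.6%, 95% Wilson interval 24.7 to 30.8) overlapped regions of both replicates, 132 replicate 1 alone, 100 replicate 2 alone and 370 (44.5%, 41.1 to 47.9) neither. Over the whole list 35.1% overlapped both and 37.8% neither. The share in both was 48.4% (41.4 to 55.5) on 3R, 28.8% (23.3 to 35.1) on 2L, 24.6% (18.7 to 31.5) on X and 12.9% (9.25 to 17.6) on 3L. For the rest of the same arms it was 40.7%, 40.3%, 36.9% and 38.5% in that order. In 3RHet, 2LHet, XHet and 3LHet it was 8.75%, 14.3%, 11.8% and 11.2%, over 240, 21, 34 and 233 regions. The low share of the centromere side of 3L was thus near that of 3LHet. In these 4 scaffolds together 59.7% overlapped neither replicate. The interval of 3R overlapped that of the rest of its arm, 38.6 to 42.9, and those of 2L, X and 3L lay below theirs. These positions are not a test, since the intervals take regions of the same 2 libraries as independent draws. Replicate 2 alone accounted for 19.8% of the 2L regions, against 7.61% on the rest of 2L. Regions in both replicates were wide, with a median of 4814 bp, and regions in neither were narrow, with 1319 bp. Their median scores were 0.51 and 0.40. The whole list showed the same contrast, with median widths of 4773 and 1284 bp and median scores of 0.51 and 0.38.

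**Figure D4:**
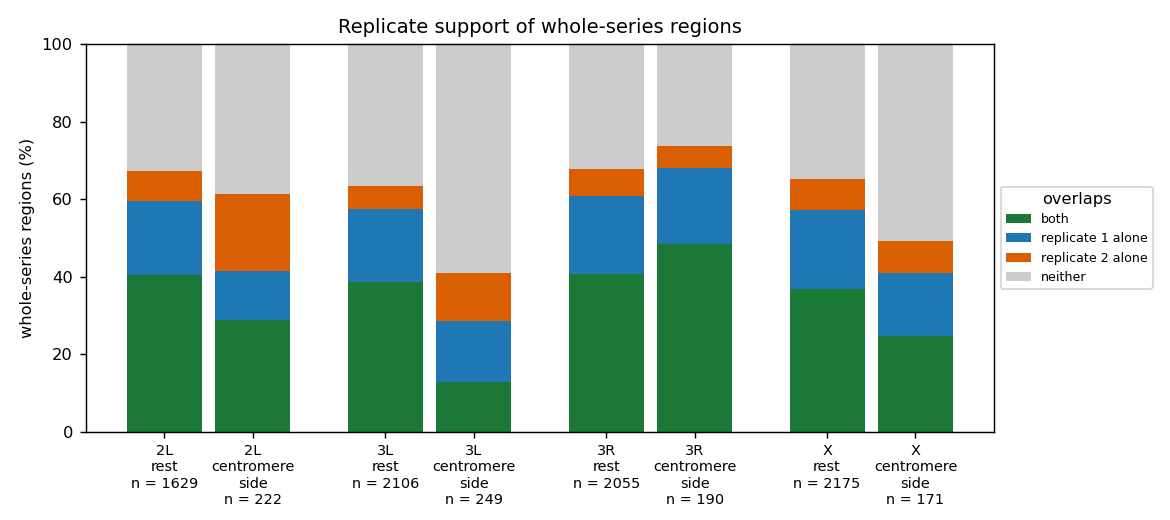
Percentage of whole-series regions that overlap, by at least 1 bp, regions of both replicates, of replicate 1 alone, of replicate 2 alone or of neither, for the centromere side and the rest of each arm. The numbers under the bars are the regions in each. The centromere side of 3L has 59.0% of its regions in neither replicate and that of 3R has 26.3%.

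Among the 4 centromere sides, the whole-series list added most on 3L relative to the mean of the replicates. On the centromere side of 3L it covered 27.1%, which was 2.86 times that mean, and in the end Mb of 3L 20.04%, or 4.15 times. On X it covered 22.5% (2.12 times), on 2L 36.4% (1.81 times) and on 3R 41.5% (1.47 times). On the rest of the arms the corresponding factor lay between 1.59 and 1.70. In the placed heterochromatin it was 3.42 on 3RHet, 3.24 on 3LHet, 3.06 on XHet and 2.70 on 2LHet. In percentage points of the sequence the additions on the centromere side were closer together, 17.6 on 3L, 16.3 on 2L, 13.3 on 3R and 11.9 on X. Of the bases of the whole-series list, 52.4% on the centromere side of 3L were in neither replicate, against 37.4% on X, 30.3% on 2L and 17.8% on 3R. For the rest of these arms that share ran from 22.0% to 25.3%. How the replicates entered this list is not given in the sources used here.

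In the whole-series list long blocks held a larger share of the region width on the centromere side of 3R and 2L than on X and 3L. Regions of 10 kb or more numbered 42 among the 832 (5.05%), against 5.14% of the whole list, with 21 on 3R, 15 on 2L, 4 on X and 2 on 3L. All 42 overlapped both replicates by at least 1 bp. That share was not computed for the long regions elsewhere, so it is not read as particular to the centromere side. They held 38.4% of the summed region width on 3R and 30.0% on 2L, against 14.4% on X and 3.92% on 3L. For the rest of those arms the shares were 27.6%, 23.9%, 25.04% and 27.3%. By number, long blocks were 15 of 222 regions on the centromere side of 2L and 84 of 1629 on its rest. In replicate 1 the share of width was 17.3% on 3R and 16.0% on 2L, against 15.9% and 16.1% of the rest, so the excess of the whole-series list was small or missing there. In replicate 2 it was 22.9% and 20.4%, against 14.0% and 15.4%. On 3L the replicates had 1 and 0 long blocks on the centromere side, and on X 1 each.

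The longest regions of each arm show where these blocks lay. On 2L a block of 29.6 kb ran from 22134611 to 22164247 with a score of 0.68, and 95.7% of it lay in regions of replicate 1 and 98.0% in regions of replicate 2. Another 2L block, 21.9 kb from 21287618 to 21309524, had 96.5% and 88.1% covered and belongs to the most covered step of the arm. On 3R the longest was 25.8 kb from 505113 to 530879, covered at 86.3% and 97.3%. The next, 23.9 kb from 750926 to 774823, had the highest score of the centromere side of 3R, 0.99, with 1.21 in replicate 1 and 0.99 in replicate 2.

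On X a block of 27.5 kb ran from 22228420 to 22255913. It was covered at 64.4% in replicate 1 and 77.4% in replicate 2, and spanned 4 regions of the first and 7 of the second. The other X block, from 21889922 to 21906519 and 16.6 kb long, scored 0.99 and 0.90, was covered at 98.4% and 97.2%, and lay in the most covered step of the arm. On 3L the longest measured 10.9 kb, from 22721072 to 22731981, and 10.4 kb, from 22818090 to 22828482. The first of them was covered at 99.0% in replicate 1 and 61.1% in replicate 2. Both lay more than 1700 kb from the end, outside the thin part of the arm.

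Regions at least 90% covered in both replicates numbered 27 of 832 (3.25%), against 4.07% of the whole list. There were 12 on 3R (6.32%), 9 on 2L (4.05%), 3 on 3L (1.20%) and 3 on X (1.75%). For the rest of these arms the shares were 4.96%, 5.34%, 4.65% and 3.72% in that order, so 3R alone lay above its rest. Ranked by the lower of their 2 replicate scores, a 10.9 kb region of 2L (21742349 to 21753236) came first, scoring 1.04 and 1.06. The 23.9 kb block of 3R was next. It was followed by 12.8 kb on 2L from 21238036 to 21250795 (1.04 and 0.96), by 9.74 kb on 3R from 22966 to 32701 (0.97 and 0.92) and by the 16.6 kb block of X. The fourth of these lies only 27.8 kb from the end of the 3R scaffold.

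The highest scores belonged to narrow regions. Of the 832 regions, 18 (2.16%) had a score of 1 or more, against 2.21% of the whole list, 0.40% of the rest of these arms and 7.77% of their placed heterochromatin. They numbered 9 on 2L, 6 on X, 3 on 3L and none on 3R. Their median width was 1118 bp and 15 of the 18 overlapped neither replicate. Among regions scoring 1 or more, 18 of 32 on the rest of these arms and 35 of 41 in the placed heterochromatin overlapped neither. Of the centromere-side regions scoring 1 or more, 6 of 9 on 2L, 6 of 6 on X and 2 of 3 on 3L lay in the end Mb, which held 137 of the 222, 85 of the 171 and 112 of the 249 whole-series regions of the centromere side of 2L, X and 3L. The top score was 3.16 for 1017 bp on 2L, from 22788496 to 22789512, followed on 2L by 1.82 for 1007 bp from 21597043 to 21598049. On 3L the top scores were 2.57 for 1078 bp from 24097934 to 24099011 and 1.63 for 1132 bp from 24416348 to 24417479. On X they were 2.40 for 1194 bp from 21771542 to 21772735 and 1.86 for 1579 bp from 21467194 to 21468772. None of these 6 regions overlapped a region of either replicate, whereas the 2 top regions of 3R were covered at 92.9% or more in both.

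Width and score were more loosely tied on the centromere side than on the rest in the whole-series list. The Spearman coefficient across regions was 0.27 over 832 regions, against 0.57 over the 7965 regions of the rest. In replicate 1 it was 0.62 against 0.70 and in replicate 2 0.51 against 0.63. The coefficients describe regions of the same libraries and carry no p.

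**Figure D5:**
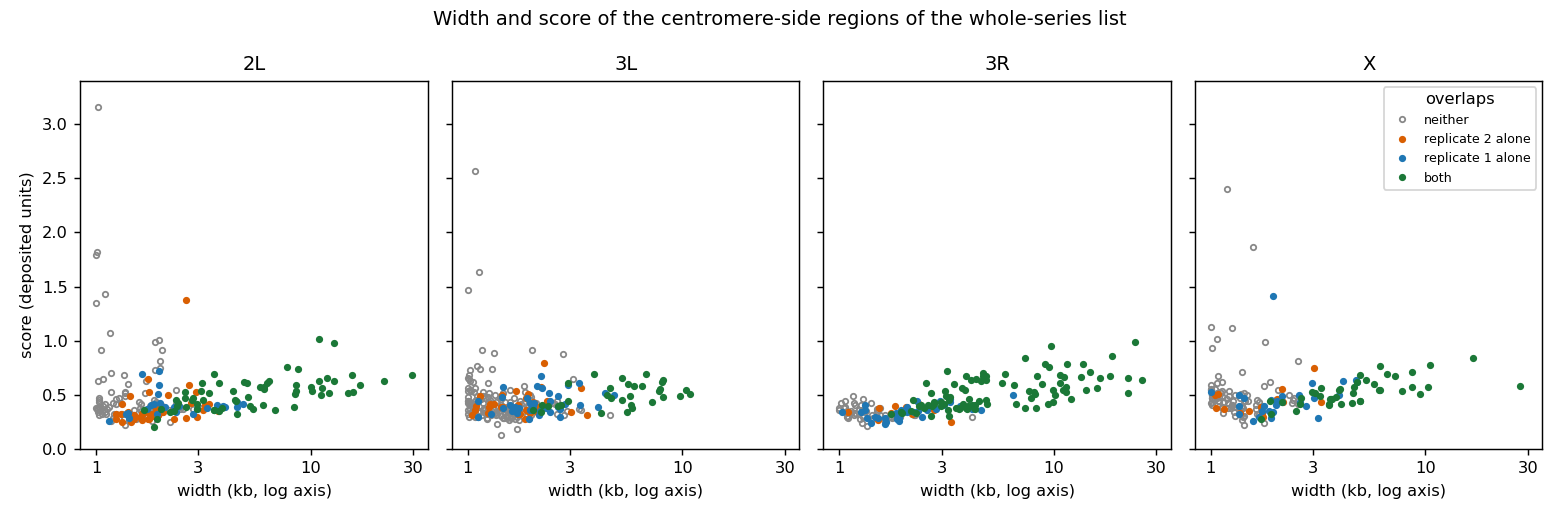
Deposited score against width in kb (log axis) for the whole-series regions on the centromere side of each arm, by the replicates they overlap. Regions of 10 kb or more overlap both replicates and score up to 1.02, whereas the highest scores, up to 3.16 on 2L, belong to regions near 1 kb that overlap neither. On 3R no region reaches 1.

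Bare stretches on the centromere side also differed between the arms. The longest without a region in any of the 3 lists was 130.2 kb on 2L, from 21890193 to 22020424, which contains the empty step. It was followed by 105 kb on X (20534926 to 20640372), 90.04 kb on 3L (22567826 to 22657865), 89.1 kb on 3R (647176 to 736256) and 87.3 kb on X (21684204 to 21771541). The 3R stretch lay between the blocks described above, inside the richest part of the arm. Stretches of 20 kb or more numbered 23 on X, 14 on 3L, 13 on 3R and 8 on 2L. Summed over all sizes, bases outside every list came to 77.3% on X, 72.1% on 3L, 63.02% on 2L and 58.2% on 3R. Bare stretches were not computed for the rest of the arms, so these values are not read as particular to the centromere side. Unsequenced and repetitive bases, to which reads cannot be assigned, count in all these lengths, and their number is unknown here.

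The outermost regions also differed between the arms, in an order unlike that of the bare stretches. On 3R the region nearest to the scaffold end began 899 bp from it in replicate 1, with 1190 bp for replicate 2 and 928 bp for the whole-series list, and with widths of 9425, 10597 and 10698 bp and scores of 0.64, 0.66 and 0.61. On 3L the nearest regions lay 8336, 8402 and 3414 bp from the end and were 1366, 1932 and 1639 bp wide. On 2L the gaps were 37684, 45576 and 25577 bp, and no region of a list overlapped that of another. On X replicate 1 left a gap of 9338 bp and replicate 2 one of 21 bp, and the whole-series region reached the end of the scaffold.

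At the limit of the 2 Mb, the last whole-series region inside and the first outside were 1410 and 5319 bp wide on 2L, with scores of 0.34 and 0.42. On 3L they were 1448 and 1009 bp wide, scoring 0.37 and 0.41. On 3R the widths were 1300 and 1506 bp and the scores 0.46 and 0.40, and on X 2145 and 4920 bp and 0.55 and 0.59. With 1 region on each side of an arm's limit, these values show no trend.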

How the data were processed

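The lists of H3K27me1 regions were used as the authors deposited them, with positions on FlyBase release 5 per the file headers. Each region comes with an enrichment score computed and deposited by the authors, for which the file headers give no scale. Bowtie 0.12.7 is named, with no role, per the submitters' processing notes. Neither the caller nor its threshold, how input was used, nor how the replicates were combined is given in the sources used here. Library depth is unknown.

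Regions past a scaffold end were trimmed to it, which touched 1 of the regions described, on X. Bases were counted by position and regions by midpoint, in windows of 2 Mb and steps of 100 kb. Overlap means at least 1 bp. Values are given per list, with the mean and SD of 2 replicates. No test was run. Steps between the 20 highest distinct scores in the windows were matched to logarithms of ratios of whole numbers (tolerance 1e-06). Base 2 matched 24 of 190 in the whole-series list, 1 in replicate 1 and 0 in replicate 2. Base 10 matched 2 in replicate 1 and 0 in the other lists, and natural logarithms 0 in each. The scale was not settled by this, so no fold was computed from scores. The windows, lists and descriptions were chosen with earlier results of these data known. Named regions followed a rule: per arm the 2 longest and 2 highest-scoring whole-series regions and the most and least covered step, and over the arms the 5 strongest regions at least 90% covered in both replicates, the 5 longest bare stretches, and the region nearest each scaffold end. The bands of 500 kb, the end and far Mb by arm, the score limit of 1 and the windows along the arm were added after the values were seen. No gene is named, because gene positions at hand were on release 6. No sequence is shown, because no genome of release 5 was used here. The functions were checked on simulated lists. Python 3.11.15, numpy 2.4.6, pandas 2.3.3, scipy 1.17.1 and matplotlib 3.10.9 were used.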

Additional observations from a re-analysis of the deposited data

Results flagged for a closer look

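Arms whose 2 replicates lay on one side of no difference were set against arms whose 2 replicates lay on the other side. None of these differences between arms was tested. For the covered share of the centromere side as a ratio to the rest of the arm, 3R exceeded 3L by 1.08 and X by 1.07, and 2L exceeded 3L by 0.71 and X by 0.70. For the median width minus that of the rest, 3R exceeded 2L by 496 bp, 3L by 689 bp and X by 392 bp. For the covered share of the end Mb minus that of the far Mb, 3R exceeded 2L by 21.0 and 3L by 21.2 percentage points, and X exceeded 2L by 12.6 and 3L by 12.8 points.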

How the results depend on the processing

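No paired analysis was possible because the input samples, which share replicate numbers with the ChIP samples, were not analysed here. The centromere side and the rest of an arm were compared within each replicate. The ratio of covered shares stayed above 1 on 3R and below 1 on 3L and X under every alternative run. On 2L it fell to 0.89 with a segment of 1 Mb. That segment gave 1.86 on 3R, 0.25 on 3L and 0.58 on X, and 3 Mb gave 1.24, 0.57 and 0.64. Regions at or above the median score gave 1.71, 0.40 and 0.45, and the whole-series list 1.43, 0.82 and 0.60. Regions of at least 2 kb gave 0.36 on 3L and 0.44 on X. One replicate at a time, the ratio ran from 0.82 to 0.95 for the arms summed, 1.03 to 1.34 on 2L, 0.43 to 0.51 on 3L, 1.49 to 1.61 on 3R and 0.47 to 0.50 on X. Summed, it was 1.01 in the whole-series list, 1.04 without 3L, 1.04 without X and 0.68 without 3R. The summed covered share of the end Mb minus the far Mb, -0.79 points, ran from -1.28 to -0.29 by replicate. It was 2.30 in the whole-series list, 2.00 without 2L, 2.06 without 3L, -4.99 without 3R and -2.21 without X, and -3.02 for the end 500 kb against the rest of the 2 Mb. The median score difference was -0.022 without replicate 2 and 0.018 without replicate 1, and was 0.0075 in the whole-series list and 0.0067 without X. The median width difference, -123 bp, ran from -147 to -98.5 bp by replicate. It was -214 bp with 1 Mb, -218 bp at or above the median score, -36.8 bp for regions of at least 2 kb, -421 bp with regions within 1 kb joined, -246 bp in the whole-series list, -87.5 bp without 2L, -0.50 bp without 3L and -226 bp without 3R. The Jaccard index was 49.9% with 1 Mb, 54.6% with 3 Mb, 51.9% at or above the median score, 60.4% for at least 2 kb, 56.2% joined, 58.0% without 3L, 49.2% without 3R and 56.2% without X. The share overlapping both replicates was 23.9% with 1 Mb, 39.1% for at least 2 kb, 20.9% when 50% of the region had to be covered, 34.0% without 3L and 21.5% without 3R, and 39.7% to 43.5% overlapped a given replicate. The cause of these changes was not tested. Leaving out the telomere-side 2 Mb, chosen after the values were seen, moved no result beyond its SD. Depth was unknown, so no limit of detection can be given.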
